A study of Homo sapiens with 12 samples.

Results

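The tumour necrosis factor (TNF) superfamily of ligands and receptors was examined in UGT2B17-expressing and control cells of the MEC1 and JVM2 lines. Members were taken by gene symbol: every gene whose symbol starts with *TNFSF* or *TNFRSF* and a digit, together with *TNF, LTA, LTB, LTBR, CD40, CD40LG, CD27, CD70, FAS, FASLG, EDAR, EDA2R* and *NGFR*. The tables held 38 such genes among 23533 genes listed in either line, 36 of them in MEC1, 33 in JVM2 and 31 in both. In either table the smallest sum over the 6 libraries of a listed gene is 10 counts. Of 45 symbols in the role lists used here, 7 were in neither table, namely *CD40LG, FASLG, TNFSF8, TNFSF18, EDAR, TNFRSF6B* and *TNFRSF11B*. The ligands of CD40, FAS, CD30 and GITR were therefore not listed in either line, while their receptors *CD40*, *FAS* and *TNFRSF8* were listed in both and *TNFRSF18* in MEC1.

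Ligands of the superfamily are mostly trimers that sit in the membrane or are shed from it, and they cluster their receptors on the same or a neighbouring cell. Receptors with a death domain can start apoptosis through FADD and caspase-8, whereas the others recruit TRAF adaptors and signal mainly to NF-κB and the MAP kinases. Decoy receptors bind ligand without passing on a full signal. In B cells the superfamily is known for CD40 help, for survival and plasma cell maintenance through BAFF and APRIL, for costimulation through CD27 and CD70, and for lymphoid tissue organization through lymphotoxin.

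Both lines are established human neoplastic B-cell lines, and total RNA depleted of ribosomal RNA was sequenced from 3 replicates of each of 4 populations. MEC1-2B17 and JVM2-2B17 cells stably expressed *UGT2B17* from pcDNA6 under blasticidin. JVM2-CTRL cells carried empty pcDNA6 under blasticidin, while MEC1-CTRL cells carried a stable shRNA knock-down of *UGT2B17* under puromycin. UGT2B17 is an enzyme that couples steroids and other lipids to glucuronic acid. The MEC1 arms thus differed in construct and antibiotic, and between the control cells of the lines the cell line, the construct and the antibiotic cannot be told apart. Read counts per library were 31762649 to 37744991 in MEC1 and 8809179 to 11231330 in JVM2, so low-level members were measured less precisely in JVM2. Mean *UGT2B17* expression went in MEC1 from 11.0 to 21.1 CPM (read counts per library scaled to a common library size) and in JVM2 from 27.8 to 38.7 CPM, both past the threshold and with no overlap between the arms. All 7 B-cell markers examined were listed in both lines, at summed levels of 3269 to 3662 CPM over MEC1 and 3237 to 4131 CPM over JVM2 libraries. Of 7 T-cell markers, 5 were listed in MEC1, at 0.452 to 0.639 CPM in CTRL and 8.04 to 8.89 CPM in 2B17 libraries, nearly all of the latter from *TRAT1*, with *CD3D* and *CD4* not listed, and none in JVM2. Of 6 myeloid markers, 5 were listed in MEC1, at 2.35 to 2.92 CPM in CTRL and 4.74 to 5.30 CPM in 2B17 libraries, and 3 in JVM2, at 5.41 to 6.58 CPM in CTRL and 11.1 to 13.8 CPM in 2B17 libraries. The integrin gene *ITGAM* rose in both lines (1.58 and 1.22 on the log2 scale), while *CD14* was at most at 0.0793 CPM on average in MEC1 and was not listed in JVM2. In MEC1 *CSF1R* fell (-0.71) and *LYZ* did not pass (0.49), and in JVM2 both were too low to test. Of 3 stromal markers, 2 were listed in each line and summed to 1.89 to 2.44 CPM in MEC1-CTRL, 2.52 to 3.56 CPM in MEC1-2B17, 16.3 to 19.5 CPM in JVM2-CTRL and 23.5 to 29.2 CPM in JVM2-2B17 libraries, mostly *PDGFRB* in JVM2. NK-cell markers, 4 of 5 listed in MEC1 and 3 in JVM2, summed to 6.30 to 6.75 CPM in MEC1-CTRL, 4.59 to 5.30 CPM in MEC1-2B17 and 1.47 to 3.60 CPM in JVM2 libraries. Single NK-cell markers in MEC1 went both ways, as *NCR1* rose (1.75), *KLRD1* (-0.83) and *KLRF1* (-0.87) fell and *NKG7* did not pass (0.44). The part of these markers in the results was not tested. As a mean chi-square per gene, pairs within an arm differed by 2.14 to 7.89 times counting error, and 2 libraries stood apart from their arm, JVM2-2B17 replicate 2 and MEC1-CTRL replicate 3. Calls of members that change without either are given beside the result. In RNA from a whole culture, fewer cells that express a gene and less RNA per cell cannot be told apart.

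Promoters were printed for 3 members whose RNA moved and whose upstream sequence held a motif that was searched for, *LTB* (RefSeq, GRCh38.p14, chr6:31582426-31582675, minus strand), *TNFRSF9* (chr1:7940840-7941089, minus strand) and *TNFSF10* (chr3:172523431-172523680, minus strand). Each is the 250 bases before the RefSeq start, written 5′ to 3′ along the gene. Capitals mark the NF-κB consensus in *LTB*, the NF-κB consensus and then an AP-1 match in *TNFRSF9*, and a match to the core of the interferon-stimulated response element in *TNFSF10*.
LTB: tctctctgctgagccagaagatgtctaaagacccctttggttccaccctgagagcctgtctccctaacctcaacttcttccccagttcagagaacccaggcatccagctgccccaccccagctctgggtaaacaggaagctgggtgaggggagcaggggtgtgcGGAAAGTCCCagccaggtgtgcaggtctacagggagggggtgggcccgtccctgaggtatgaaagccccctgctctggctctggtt
TNFRSF9: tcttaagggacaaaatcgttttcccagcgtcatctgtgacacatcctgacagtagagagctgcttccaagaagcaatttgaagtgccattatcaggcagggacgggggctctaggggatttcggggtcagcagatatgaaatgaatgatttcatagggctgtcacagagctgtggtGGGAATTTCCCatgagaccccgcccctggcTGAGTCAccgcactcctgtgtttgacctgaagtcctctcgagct
TNFSF10: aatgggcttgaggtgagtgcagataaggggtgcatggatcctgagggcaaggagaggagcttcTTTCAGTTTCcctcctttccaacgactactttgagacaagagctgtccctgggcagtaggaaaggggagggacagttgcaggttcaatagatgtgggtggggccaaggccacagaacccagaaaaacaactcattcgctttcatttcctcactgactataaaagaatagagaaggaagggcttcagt
The match lay 86 to 77 bases before the start in *LTB*, 74 to 64 (NF-κB) and 44 to 38 bases (AP-1) before it in *TNFRSF9*, and 187 to 178 bases before it in *TNFSF10*. Both strands were searched, for the NF-κB consensus by its name, for AP-1 as TGACTCA or TGAGTCA, and for the interferon element as GAAA, any 2 bases and GAAA again. Matches to different motifs do not overlap in the printed sequences. In *TNFRSF9* both motifs were found on both strands, AP-1 at the same bases and NF-κB at 74 to 65 on the gene's strand and 73 to 64 on the other. The NF-κB consensus was in 5.05% of 27305 RefSeq promoters of this length, AP-1 in 4.16% and the interferon element in 3.07%. Among the 26 members with a RefSeq promoter, 4 held the NF-κB consensus (*LTB, TNFRSF9, TNFRSF14* and *TNFSF14*), 3 AP-1 (*TNFRSF9, TNFSF14* and *TNFSF15*) and 3 the interferon element (*TNFSF10, TNFSF9* and *TNFRSF1B*). In all 3 printed genes the window lies partly or fully inside the gene bounds of GENCODE, which starts these genes farther upstream.

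In MEC1, 25 of 34 tested members changed between the arms at an adjusted *P* below 0.05, compared to 41.7% of all 16581 genes tested. Of these, 9 were higher in MEC1-2B17 (20.0% of all genes) and 16 lower (21.6% of all genes), and 7 changed at least 2-fold (5.30% of all genes). In JVM2, 16 of 26 tested members changed, compared to 29.3% of 13021 genes, with 8 higher (14.1%), 8 lower (15.3%) and 6 changed at least 2-fold (6.23%). The median size of the log2 fold change over tested members was 0.44 in MEC1 and 0.41 in JVM2, against 0.17 and 0.18 over all genes. These counts describe the members that passed a filter on low counts. A gene such as *TNFRSF21*, *TNFRSF10C* or, in MEC1, *TNFSF12* that passed through its CTRL libraries alone could only pass as lower. *LTB* in JVM2 was the other way around. Its CTRL libraries, at 16, 10 and 13 counts, would not have passed alone, so it passed with its 2B17 libraries. The same held in MEC1 for *TNFSF13*, at 20, 9 and 11 counts in CTRL, and *TNFSF15*, at 10, 11 and 13 counts. In MEC1, *NGFR* and *TNFRSF25* were listed but too low to test, and in JVM2 the same held for *TNFRSF25, TNFRSF10D, TNFSF11, TNFRSF11A, TNFRSF12A, TNFRSF4* and *TNFRSF9*. Without JVM2-2B17 replicate 2 the JVM2 count was 17, with *CD27* added, and without MEC1-CTRL replicate 3 the MEC1 count was again 25, with *TNFRSF10B* lost and *TNFSF14* gained.

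**Figure D1:**
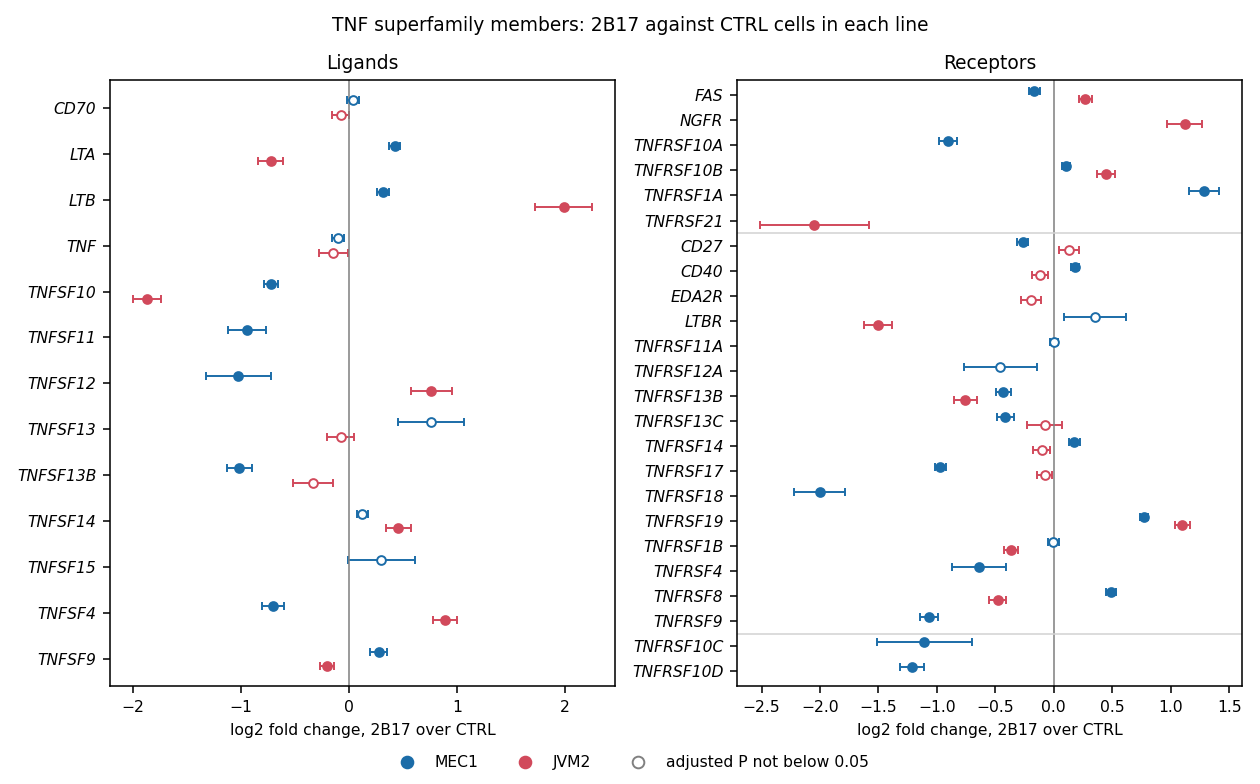
Log2 fold change of 2B17 over CTRL cells for each tested member, ligands on the left and receptors on the right, with MEC1 in blue and JVM2 in red. Bars are the SE from 3 libraries per arm, filled points have an adjusted *P* below 0.05, and grey lines separate death-domain receptors (top), other receptors and decoys. *TNFRSF21* (-2.05, JVM2) and *TNFRSF18* (-2.0, MEC1) fell the most, and *LTB* in JVM2 (1.99) rose the most.

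In both lines 23 members were tested, and 11 of them were past the threshold in both, compared to 15.8% of 12243 genes tested in both lines. Of these 11, 3 were higher in both (*TNFRSF19, LTB* and *TNFRSF10B*, 3.90% of all genes), 2 were lower in both (*TNFSF10* and *TNFRSF13B*, 4.48%) and 6 moved in opposite directions (*LTA, TNFSF4, TNFSF9, TNFSF12, TNFRSF8* and *FAS*, 7.43%). By the rule of the study's methods, which asks for an adjusted *P* below 0.05 in both edgeR and DESeq2, 8 of the 11 remained and *TNFRSF10B, TNFSF9* and *TNFSF12* did not. Without the low-count filter, *TNFRSF9* joined the members lower in both and *TNFSF9* lost its place. This gave 3 lower in both and 5 opposite.

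*TNFSF10* (chromosome 3, 172505508 to 172523475, minus strand) encodes TRAIL, a ligand that can start apoptosis in tumour cells. *TNFSF10* in MEC1 stood at 23.1, 21.8 and 20.2 CPM in CTRL cells and at 14.2, 12.8 and 12.5 CPM in 2B17 cells, which gave a change of -0.72 ± 0.068 (SE) on the log2 scale (adjusted *P* = 6.83e-08). Levels of *TNFSF10* were 18.6, 21.1 and 20.9 CPM in JVM2-CTRL and 4.71, 5.74 and 6.22 CPM in JVM2-2B17 cells, and the change was -1.87 ± 0.13 (SE) on the log2 scale (adjusted *P* = 4.03e-07). The CTRL levels of the lines were close and every 2B17 library of either line lay below every CTRL library. The fall was larger in JVM2, and the difference between the line effects, always given as MEC1 minus JVM2, was 1.16 ± 0.15 (SE) on the log2 scale (adjusted *P* = 4.49e-06).

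The receptors of TRAIL lie side by side on chromosome 8 and moved unequally. *TNFRSF10B* (chromosome 8, 23020133 to 23069031, minus strand) and *TNFRSF10A* (chromosome 8, 23190452 to 23225102, minus strand) carry a death domain, *TNFRSF10C* lacks an intracellular part, and *TNFRSF10D* has a truncated death domain. In MEC1, *TNFRSF10B* was at 86.9, 87.9 and 86.8 CPM in the CTRL libraries and 90.3, 95.7 and 94.9 CPM in the 2B17 libraries, with a change of 0.10 ± 0.035 (SE) on the log2 scale (adjusted *P* = 0.0247). The call in MEC1 was lost without any one library except MEC1-2B17 replicate 1 (adjusted *P* of 0.0567 to 0.0775) and with DESeq2 (adjusted *P* = 0.054). *TNFRSF10B* in JVM2 stood at 39.1, 37.7 and 41.4 CPM in CTRL cells and at 48.8, 56.1 and 56.3 CPM in 2B17 cells, which gave a change of 0.45 ± 0.079 (SE) on the log2 scale (adjusted *P* = 0.00111). The arms did not overlap in either line. Levels of *TNFRSF10A* were 13.9, 13.8 and 15.3 CPM in MEC1-CTRL and 7.58, 7.75 and 7.63 CPM in MEC1-2B17 cells, and the change was -0.91 ± 0.074 (SE) on the log2 scale (adjusted *P* = 8.77e-09). *TNFRSF10A* was not listed in JVM2, and 16.7% of its exon bases overlap antisense genes (whether reads were counted by strand is not given in the sources used here). In MEC1, *TNFRSF10D* was at 8.55, 8.98 and 10.6 CPM in the CTRL libraries and 3.91, 4.29 and 3.91 CPM in the 2B17 libraries, with a change of -1.21 ± 0.10 (SE) on the log2 scale (adjusted *P* = 1.46e-08). In JVM2 *TNFRSF10D* had 6 to 10 counts per library and was not tested. *TNFRSF10C* had 20, 17 and 10 counts in MEC1-CTRL and 3, 6 and 11 in MEC1-2B17 cells, so the arms overlapped. Its change of -1.11 ± 0.41 (SE) on the log2 scale (adjusted *P* = 0.0349) was lost with DESeq2 (adjusted *P* = 0.141) and without replicate 1 or 2 of either arm (adjusted *P* of 0.0958 to 0.179), and was -1.68 without MEC1-2B17 replicate 3 (adjusted *P* = 0.0125). In the annotation 33.0% of its exon bases are shared with other genes on the same strand. In MEC1 the ligand, 1 death receptor and the decoy *TNFRSF10D* therefore fell by 1.65-, 1.87- and 2.31-fold, while the other death receptor, *TNFRSF10B*, stood 1.07-fold higher.

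*FAS*, the death-domain receptor of FAS ligand, was among the members with opposite changes. *FAS* in MEC1 stood at 78.0, 75.5 and 68.9 CPM in CTRL cells and at 69.2, 65.3 and 63.6 CPM in 2B17 cells, which gave a change of -0.17 ± 0.047 (SE) on the log2 scale (adjusted *P* = 0.00769). Levels of *FAS* were 95.0, 101 and 99.2 CPM in JVM2-CTRL and 117, 119 and 119.9 CPM in JVM2-2B17 cells, and the change was 0.27 ± 0.057 (SE) on the log2 scale (adjusted *P* = 0.00344). The MEC1 arms overlapped at 1 library, with MEC1-CTRL replicate 3 just below MEC1-2B17 replicate 1, and the MEC1 call was lost without MEC1-2B17 replicate 3 (adjusted *P* = 0.065). The JVM2 arms did not overlap. *TNFRSF1A*, the widely expressed receptor of TNF, was listed in MEC1 only. In MEC1, *TNFRSF1A* was at 2.63, 1.92 and 1.93 CPM in the CTRL libraries and 5.51, 4.93 and 5.46 CPM in the 2B17 libraries, with a change of 1.28 ± 0.13 (SE) on the log2 scale (adjusted *P* = 2.04e-07). This was the largest rise among MEC1 members, from a low level. *NGFR*, the neurotrophin receptor p75, had 0 to 4 counts per library in MEC1. *NGFR* in JVM2 stood at 4.09, 4.57 and 3.50 CPM in CTRL cells and at 9.34, 8.22 and 8.94 CPM in 2B17 cells, which gave a change of 1.12 ± 0.15 (SE) on the log2 scale (adjusted *P* = 0.000152). Its 2B17 libraries were all above its CTRL libraries, and 27.2% of its exon bases overlap an antisense gene. *TNFRSF21*, a death-domain receptor also known for its part in neurons, was listed in JVM2 only and had 21, 30 and 11 counts in CTRL and 9, 3 and 2 counts in 2B17 libraries. Its level was highest in JVM2-CTRL replicate 2 and all 2B17 libraries were below all CTRL libraries. The fall of *TNFRSF21* in JVM2 had a change of -2.05 ± 0.46 (SE) on the log2 scale (adjusted *P* = 0.00556). *TNFRSF25*, the receptor of TL1A, had at most 15 counts in any library and was tested in neither line. It had 5, 0 and 6 counts in MEC1-CTRL and 7, 7 and 13 in MEC1-2B17 libraries. In JVM2 it had 4, 2 and 0 counts in CTRL and 15, 10 and 8 in 2B17 libraries. The 2B17 libraries thus lay above the CTRL libraries in both lines, at very low counts.

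**Figure D2:**
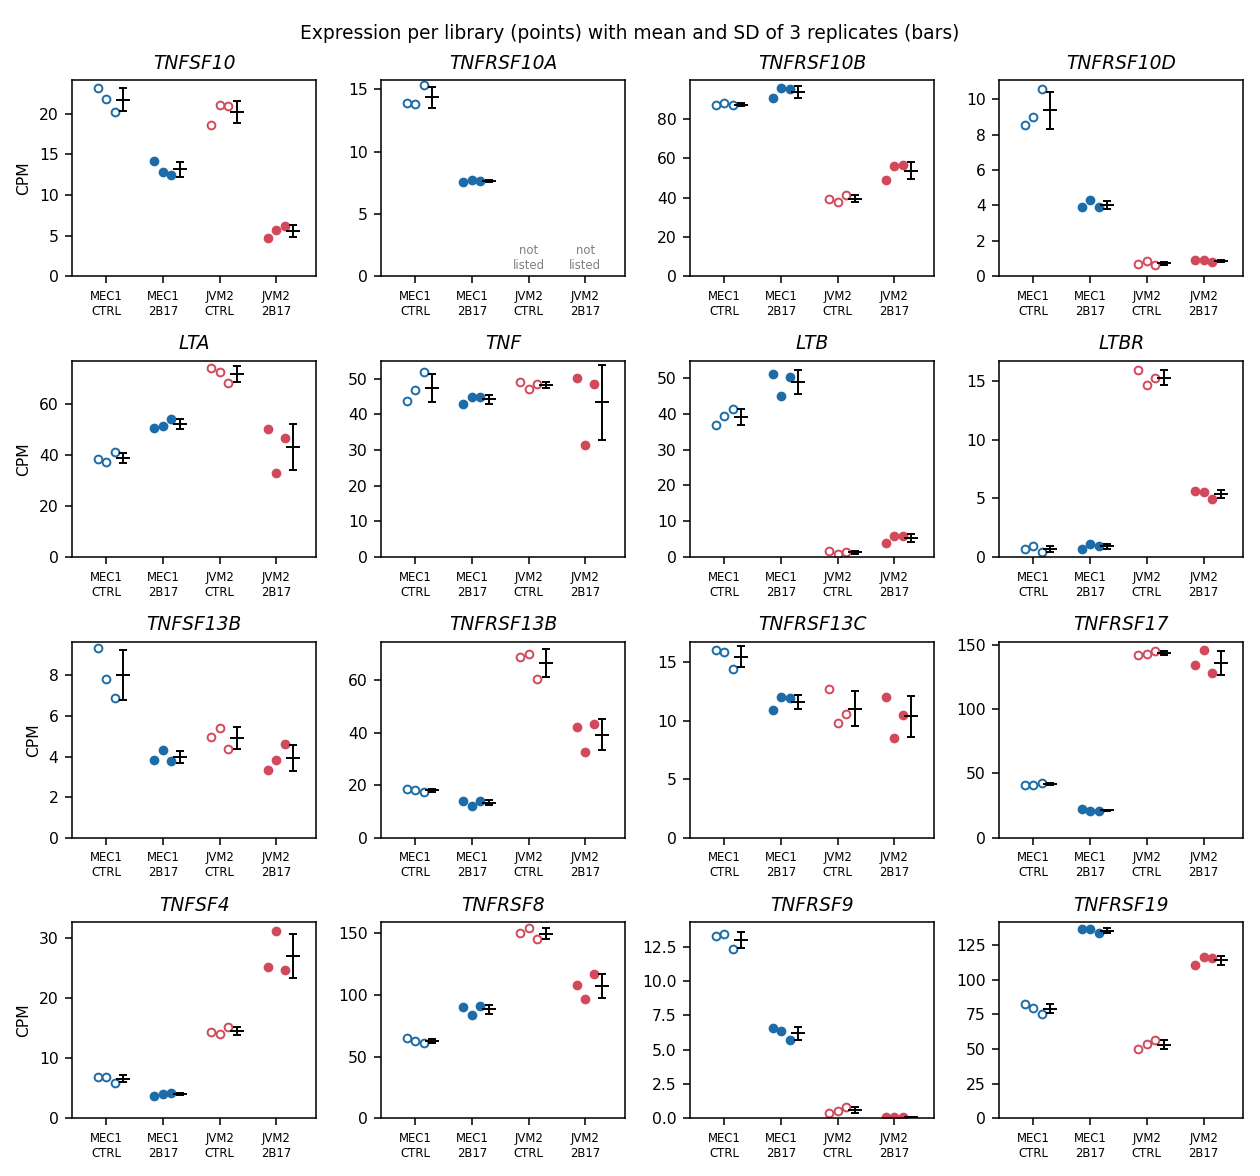
CPM of 16 members in each of the 12 libraries, on linear axes that start at 0, with open points for CTRL and filled points for 2B17 cells of MEC1 (blue) and JVM2 (red), and with the mean and SD of 3 replicates in black. *TNFSF10* and *TNFRSF13B* were lower and *TNFRSF19* and *LTB* higher in the 2B17 libraries of both lines, while *LTA, TNFSF4* and *TNFRSF8* moved in opposite directions. JVM2-2B17 replicate 2 (middle point of its arm) was the lowest of its arm for *LTA* and *TNF*.

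The genes of TNF and the lymphotoxins lie next to each other on chromosome 6, *LTA* at 31572054 to 31574324 and *TNF* at 31575565 to 31578336 on the plus strand and *LTB* at 31580525 to 31582522 on the minus strand. *LTA* makes a secreted trimer that binds the TNF receptors and, with *LTB*, a membrane trimer that binds the receptor encoded by *LTBR*. Levels of *LTB* were 36.8, 39.3 and 41.4 CPM in MEC1-CTRL and 51.2, 44.9 and 50.3 CPM in MEC1-2B17 cells, and the change was 0.32 ± 0.056 (SE) on the log2 scale (adjusted *P* = 0.000127). In JVM2, *LTB* was at 1.59, 0.933 and 1.38 CPM in the CTRL libraries and 3.99, 5.97 and 5.77 CPM in the 2B17 libraries, with a change of 1.99 ± 0.26 (SE) on the log2 scale (adjusted *P* = 0.000116). The arms did not overlap in either line, the JVM2-CTRL level rested on 16, 10 and 13 counts, and the JVM2-2B17 libraries stayed far below the MEC1-CTRL libraries. The rise was larger in JVM2, with a difference of -1.67 ± 0.26 (SE) on the log2 scale (adjusted *P* = 5.55e-05). *LTA* in MEC1 stood at 38.2, 37.3 and 41.1 CPM in CTRL cells and at 50.6, 51.5 and 54.2 CPM in 2B17 cells, which gave a change of 0.42 ± 0.048 (SE) on the log2 scale (adjusted *P* = 8.76e-07). Levels of *LTA* were 73.9, 72.6 and 67.9 CPM in JVM2-CTRL and 49.9, 32.9 and 46.4 CPM in JVM2-2B17 cells, and the change was -0.73 ± 0.12 (SE) on the log2 scale (adjusted *P* = 0.000582). Neither line had overlapping arms, and without JVM2-2B17 replicate 2, the lowest library, the JVM2 change was -0.57 (adjusted *P* = 3.44e-08). The opposite movement gave a difference between the lines of 1.15 ± 0.13 (SE) on the log2 scale (adjusted *P* = 4.77e-07).

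*TNF* itself, the founding ligand, did not pass the threshold in either line. In MEC1, *TNF* was at 43.7, 46.7 and 51.7 CPM in the CTRL libraries and 42.8, 45.0 and 44.7 CPM in the 2B17 libraries, with a change of -0.10 ± 0.055 (SE) on the log2 scale (adjusted *P* = 0.159). Without MEC1-CTRL replicate 1, *TNF* passed in MEC1 at -0.16 (adjusted *P* = 0.0257). *TNF* in JVM2 stood at 48.9, 47.2 and 48.4 CPM in CTRL cells and at 50.3, 31.3 and 48.4 CPM in 2B17 cells, which gave a change of -0.15 ± 0.14 (SE) on the log2 scale (adjusted *P* = 0.453). In JVM2 the 2B17 libraries overlapped the CTRL libraries, with replicate 2 far below the others, and without replicate 2 the change was 0.039 (adjusted *P* = 0.698). *LTBR*, the receptor of the membrane lymphotoxin, was low in MEC1, at 0.452 to 0.959 CPM in CTRL and 0.711 to 1.10 CPM in 2B17 cells with overlapping arms. Levels of *LTBR* were 15.9, 14.6 and 15.3 CPM in JVM2-CTRL and 5.62, 5.52 and 4.98 CPM in JVM2-2B17 cells, and the change was -1.50 ± 0.12 (SE) on the log2 scale (adjusted *P* = 1.62e-06). In JVM2 the receptor gene thus fell 2.83-fold and *LTB* rose 3.97-fold, both with no overlap. The second receptor of TNF, *TNFRSF1B*, lacks a death domain. In MEC1 it was at 81.0 to 92.1 CPM in CTRL and 80.1 to 88.7 CPM in 2B17 cells, with a change of -0.0034 ± 0.048 (SE) on the log2 scale (adjusted *P* = 0.965). In JVM2, *TNFRSF1B* was at 84.8, 77.6 and 79.3 CPM in the CTRL libraries and 63.9, 60.5 and 63.1 CPM in the 2B17 libraries, with a change of -0.37 ± 0.063 (SE) on the log2 scale (adjusted *P* = 0.000911). Its JVM2-2B17 libraries were all below its JVM2-CTRL libraries. The difference between the lines came to 0.37 ± 0.082 (SE) on the log2 scale (adjusted *P* = 0.00175).

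In the BAFF and APRIL system, 4 of the 5 genes fell in MEC1 (21.6% of all genes), namely the BAFF gene *TNFSF13B* and the receptor genes *TNFRSF13B* (TACI), *TNFRSF13C* (BAFF receptor) and *TNFRSF17* (BCMA), and 1 of the 5, *TNFRSF13B*, fell in JVM2 (15.3% of all genes). *TNFRSF13B* in MEC1 stood at 18.4, 18.2 and 17.5 CPM in CTRL cells and at 13.9, 12.2 and 14.1 CPM in 2B17 cells, which gave a change of -0.43 ± 0.066 (SE) on the log2 scale (adjusted *P* = 3.02e-05). Levels of *TNFRSF13B* were 68.8, 70.1 and 60.4 CPM in JVM2-CTRL and 42.1, 32.7 and 43.1 CPM in JVM2-2B17 cells, and the change was -0.76 ± 0.10 (SE) on the log2 scale (adjusted *P* = 0.000123). The difference between the line effects of *TNFRSF13B* was 0.33 ± 0.12 (SE) on the log2 scale (adjusted *P* = 0.0434), and it was lost in 8 of the 12 fits without 1 library (adjusted *P* of 0.0576 to 0.109), those without JVM2-2B17 replicate 2 and MEC1-CTRL replicate 3 among them. TACI, which binds both ligands, was thus lower in all 2B17 libraries of both lines, and 17.3% of its exon bases overlap a pseudogene on the same strand. In MEC1, *TNFRSF17* was at 41.1, 41.1 and 42.5 CPM in the CTRL libraries and 21.9, 21.0 and 20.7 CPM in the 2B17 libraries, with a change of -0.97 ± 0.049 (SE) on the log2 scale (adjusted *P* = 1.34e-11). BCMA, a receptor of plasma cells, was at much higher levels in JVM2. *TNFRSF17* in JVM2 stood at 142, 143 and 145 CPM in CTRL cells and at 134, 146 and 128 CPM in 2B17 cells, which gave a change of -0.077 ± 0.063 (SE) on the log2 scale (adjusted *P* = 0.393). The JVM2 arms overlapped, and the line effects differed by -0.89 ± 0.075 (SE) on the log2 scale (adjusted *P* = 1.26e-08). Among 4 plasma-cell markers, the summed level was 1599 to 1642 CPM in MEC1-CTRL and 2854 to 2917 CPM in MEC1-2B17 cells, and 2728 to 2751 CPM in JVM2-CTRL and 2466 to 2629 CPM in JVM2-2B17 cells. In MEC1, *IRF4* (log2 fold change 1.03) and *SDC1* (0.77) rose and *PRDM1* (-1.46) fell, and *XBP1* did not pass (0.0076). In JVM2 *PRDM1* fell from a mean of 93.9 to 31.3 CPM (-1.58), *SDC1* (-0.48) and *XBP1* (-0.39) also fell, and *IRF4*, which makes up most of the sum, did not pass (0.054). Their part in the results of this receptor system was not tested.

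Levels of *TNFSF13B* were 9.36, 7.84 and 6.90 CPM in MEC1-CTRL and 3.85, 4.32 and 3.78 CPM in MEC1-2B17 cells, and the change was -1.02 ± 0.12 (SE) on the log2 scale (adjusted *P* = 8.22e-07). Each BAFF level in MEC1-2B17 cells was below each MEC1-CTRL level. In JVM2 *TNFSF13B* was at 4.35 to 5.41 CPM in CTRL and 3.35 to 4.64 CPM in 2B17 cells, with overlapping arms and a change of -0.34 ± 0.18 (SE) on the log2 scale (adjusted *P* = 0.196). In MEC1, *TNFRSF13C* was at 16.1, 15.9 and 14.5 CPM in the CTRL libraries and 11.0, 12.04 and 11.95 CPM in the 2B17 libraries, with a change of -0.41 ± 0.069 (SE) on the log2 scale (adjusted *P* = 8.21e-05). The MEC1 arms did not overlap here either. In JVM2 the BAFF receptor ranged from 9.79 to 12.8 CPM in CTRL and from 8.56 to 12.1 CPM in 2B17 cells, and its change was -0.078 ± 0.15 (SE) on the log2 scale (adjusted *P* = 0.738). The difference between the line effects was past the threshold for *TNFSF13B*, at -0.67 ± 0.24 (SE) on the log2 scale (adjusted *P* = 0.0359), and not for *TNFRSF13C*, at -0.33 ± 0.16 (SE) on the log2 scale (adjusted *P* = 0.117). The former was lost in 6 of the 12 fits without 1 library (adjusted *P* up to 0.123), while the latter passed without JVM2-2B17 replicate 2 (-0.45, adjusted *P* = 0.0273) and without JVM2-CTRL replicate 1 (-0.45, adjusted *P* = 0.0458). APRIL, encoded by *TNFSF13*, did not pass in either line with the main test. Its MEC1 libraries held 9 to 26 counts, with a change of 0.76 ± 0.31 (SE) on the log2 scale (adjusted *P* = 0.057), and its JVM2 libraries were at 10.2 to 13.9 CPM, with a change of -0.075 ± 0.13 (SE) on the log2 scale (adjusted *P* = 0.694). In MEC1 it passed as higher with edgeR's exact test (adjusted *P* = 0.0443), without MEC1-CTRL replicate 1 (1.11, adjusted *P* = 0.0186) and without MEC1-2B17 replicate 1 (0.92, adjusted *P* = 0.0395). With all libraries, its MEC1-CTRL libraries alone would not have passed the low-count filter, so it was tested through its 2B17 libraries. Of its exon bases, 55.5% are shared with the readthrough gene *TNFSF12-TNFSF13*, so reads of the 2 genes can be split or lost.

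*TNFRSF19* (chromosome 13, 23570370 to 23676104, plus strand), which encodes the orphan receptor TROY, rose in both lines. *TNFRSF19* in MEC1 stood at 82.1, 79.9 and 75.2 CPM in CTRL cells and at 136, 136 and 133 CPM in 2B17 cells, which gave a change of 0.77 ± 0.036 (SE) on the log2 scale (adjusted *P* = 4.16e-12). Levels of *TNFRSF19* were 50.0, 53.3 and 56.1 CPM in JVM2-CTRL and 110.1, 116 and 115 CPM in JVM2-2B17 cells, and the change was 1.10 ± 0.064 (SE) on the log2 scale (adjusted *P* = 9.87e-08). The replicates were tight, with SDs of 1.65 to 3.48 CPM, and each 2B17 library was far above each CTRL library. The rise was larger in JVM2, with a difference of -0.32 ± 0.075 (SE) on the log2 scale (adjusted *P* = 0.00236).

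Of the costimulatory pairs, *TNFSF4* (chromosome 1, 173183731 to 173207331, minus strand), the OX40 ligand, moved in opposite directions. In MEC1, *TNFSF4* was at 6.89, 6.97 and 5.90 CPM in the CTRL libraries and 3.82, 4.13 and 4.23 CPM in the 2B17 libraries, with a change of -0.70 ± 0.10 (SE) on the log2 scale (adjusted *P* = 1.91e-05). *TNFSF4* in JVM2 stood at 14.3, 14.1 and 15.3 CPM in CTRL cells and at 25.2, 31.3 and 24.8 CPM in 2B17 cells, which gave a change of 0.89 ± 0.11 (SE) on the log2 scale (adjusted *P* = 7.02e-05). No arms overlapped, and the line effects differed by -1.59 ± 0.15 (SE) on the log2 scale (adjusted *P* = 7.69e-08). Its receptor gene *TNFRSF4* was low, at 18 to 53 counts in MEC1 and 5 to 10 in JVM2. Its MEC1 change of -0.64 ± 0.23 (SE) on the log2 scale (adjusted *P* = 0.0334) was lost with DESeq2 (adjusted *P* = 0.13) and without MEC1-CTRL replicate 1 or 2 or MEC1-2B17 replicate 2 or 3 (adjusted *P* of 0.0641 to 0.165).

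*TNFRSF8* (chromosome 1, 12063303 to 12144207, plus strand), the gene of the activation marker CD30, also moved in opposite directions. Levels of *TNFRSF8* were 64.6, 62.6 and 61.2 CPM in MEC1-CTRL and 89.8, 83.7 and 90.7 CPM in MEC1-2B17 cells, and the change was 0.49 ± 0.041 (SE) on the log2 scale (adjusted *P* = 1.19e-08). In JVM2, *TNFRSF8* was at 149, 154 and 145 CPM in the CTRL libraries and 108, 96.8 and 117 CPM in the 2B17 libraries, with a change of -0.48 ± 0.071 (SE) on the log2 scale (adjusted *P* = 0.000282). With these changes the lines came closer but still differed. In the joint fit of all 12 libraries, MEC1 minus JVM2 was -1.42 on the log2 scale in CTRL cells. In 2B17 cells, compared after values had been seen, it was -0.45 ± 0.058 (SE) on the log2 scale (adjusted *P* = 5.8e-07). *TNFSF9* encodes a ligand of activated antigen-presenting cells and *TNFRSF9* its receptor, CD137. *TNFSF9* in MEC1 stood at 26.2, 31.3 and 31.5 CPM in CTRL cells and at 39.5, 31.6 and 36.4 CPM in 2B17 cells, which gave a change of 0.28 ± 0.075 (SE) on the log2 scale (adjusted *P* = 0.00629). Levels of *TNFSF9* were 70.0, 75.3 and 68.5 CPM in JVM2-CTRL and 58.4, 65.4 and 62.3 CPM in JVM2-2B17 cells, and the change was -0.20 ± 0.069 (SE) on the log2 scale (adjusted *P* = 0.0432). The arms did not overlap in either line. The changes of *TNFSF9* were small and both calls were fragile. The MEC1 call was lost without MEC1-2B17 replicate 1 (adjusted *P* = 0.0511). The JVM2 call was lost with DESeq2 (adjusted *P* = 0.135) and without the low-count filter (adjusted *P* = 0.0566). It was also lost without any one library except JVM2-2B17 replicate 2 (adjusted *P* of 0.0771 to 0.182). In MEC1, *TNFRSF9* was at 13.3, 13.5 and 12.3 CPM in the CTRL libraries and 6.58, 6.37 and 5.68 CPM in the 2B17 libraries, with a change of -1.07 ± 0.081 (SE) on the log2 scale (adjusted *P* = 3.48e-09). The fall took each MEC1-2B17 library below each MEC1-CTRL library. In JVM2 *TNFRSF9* had 4, 6 and 8 counts in CTRL and 1 in each 2B17 library, under the filter. With the filter left out, *TNFRSF9* passed as lower in JVM2 too, on these few counts.

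*CD70* was the ligand with the highest CPM per kilobase of transcript in CTRL cells of both lines, at 169 ± 7.6 in MEC1 and 171 ± 11 in JVM2 (SD, n = 3), and it did not pass the threshold in either. *CD70* in MEC1 stood at 146, 155 and 159.7 CPM in CTRL cells and at 169, 138 and 166 CPM in 2B17 cells, which gave a change of 0.035 ± 0.057 (SE) on the log2 scale (adjusted *P* = 0.668). Levels of *CD70* were 166, 156 and 146 CPM in JVM2-CTRL and 165, 136 and 143 CPM in JVM2-2B17 cells, and the change was -0.076 ± 0.078 (SE) on the log2 scale (adjusted *P* = 0.504). The arms overlapped in both lines. Without MEC1-2B17 replicate 2, its lowest library, *CD70* passed in MEC1 at 0.13 (adjusted *P* = 0.0176). Its receptor *CD27* had the highest level per kilobase among MEC1 receptors. In MEC1, *CD27* was at 91.9, 84.3 and 88.2 CPM in the CTRL libraries and 74.0, 68.9 and 76.9 CPM in the 2B17 libraries, with a change of -0.27 ± 0.044 (SE) on the log2 scale (adjusted *P* = 6.23e-05). *CD27* in JVM2 stood at 64.4, 63.5 and 64.3 CPM in CTRL cells and at 76.5, 59.9 and 73.4 CPM in 2B17 cells, which gave a change of 0.13 ± 0.085 (SE) on the log2 scale (adjusted *P* = 0.281). In JVM2, replicate 2 was the only 2B17 library below the CTRL libraries, and without it *CD27* passed as higher at 0.23 (adjusted *P* = 0.00221). An antisense gene, *CD27-AS1*, overlaps 42.5% of the exon bases of *CD27*. *CD40*, the receptor through which T cells help B cells, rose slightly in MEC1. Levels of *CD40* were 86.2, 83.4 and 83.1 CPM in MEC1-CTRL and 98.6, 91.8 and 96.2 CPM in MEC1-2B17 cells, and the change was 0.18 ± 0.037 (SE) on the log2 scale (adjusted *P* = 0.000523). The arms did not overlap in either line. In JVM2 it was at 78.5 to 88.7 CPM in CTRL and 74.6 to 77.7 CPM in 2B17 cells, with a change of -0.12 ± 0.065 (SE) on the log2 scale (adjusted *P* = 0.193).

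*TNFSF14* (LIGHT) binds HVEM, encoded by *TNFRSF14*, and the lymphotoxin beta receptor. In JVM2, *TNFSF14* was at 15.2, 13.7 and 16.4 CPM in the CTRL libraries and 22.5, 17.6 and 22.1 CPM in the 2B17 libraries, with a change of 0.46 ± 0.12 (SE) on the log2 scale (adjusted *P* = 0.0117). The arms did not overlap, and the call was lost without JVM2-2B17 replicate 1 (adjusted *P* = 0.0531) or JVM2-CTRL replicate 2 (adjusted *P* = 0.066). In MEC1 *TNFSF14* was at 38.0 to 41.0 CPM in CTRL and 40.4 to 44.8 CPM in 2B17 cells, with a change of 0.12 ± 0.051 (SE) on the log2 scale (adjusted *P* = 0.0627), and it passed without MEC1-2B17 replicate 2 (0.17, adjusted *P* = 0.0137) or MEC1-CTRL replicate 3 (0.14, adjusted *P* = 0.0396). The difference between the line effects of *TNFSF14* was -0.34 ± 0.12 (SE) on the log2 scale (adjusted *P* = 0.0414), and it was lost in 8 of the 12 fits without 1 library, MEC1-CTRL replicate 3 among them (adjusted *P* = 0.0695). *TNFRSF14* in MEC1 stood at 52.5, 51.3 and 50.8 CPM in CTRL cells and at 56.7, 55.8 and 62.0 CPM in 2B17 cells, which gave a change of 0.17 ± 0.046 (SE) on the log2 scale (adjusted *P* = 0.00483). Its MEC1 arms did not overlap. In JVM2 *TNFRSF14* was at 50.3 to 52.7 CPM in CTRL and 44.4 to 51.7 CPM in 2B17 cells, with a change of -0.10 ± 0.074 (SE) on the log2 scale (adjusted *P* = 0.329). Of its exon bases, 13.3% overlap an antisense gene.

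*TNFSF12* (TWEAK) moved in opposite directions at low levels. MEC1-CTRL libraries held 22, 20 and 22 counts and MEC1-2B17 libraries 8, 8 and 13. Expression of *TNFSF12* was lower in MEC1-2B17 cells, at a change of -1.03 ± 0.30 (SE) on the log2 scale (adjusted *P* = 0.00998). Levels of *TNFSF12* were 3.89, 4.48 and 3.71 CPM in JVM2-CTRL and 7.52, 5.07 and 7.92 CPM in JVM2-2B17 cells, and the change was 0.76 ± 0.19 (SE) on the log2 scale (adjusted *P* = 0.0105). The arms did not overlap in either line, but the MEC1 call was lost with DESeq2 (adjusted *P* = 0.0776) and without MEC1-2B17 replicate 1 (adjusted *P* = 0.0523). The readthrough gene *TNFSF12-TNFSF13* shares 12.1% of the exon bases of *TNFSF12*. The receptor of TWEAK, *TNFRSF12A*, had at most 27 counts in any library and a MEC1 change of -0.46 ± 0.31 (SE) on the log2 scale (adjusted *P* = 0.261). *TNFSF11*, the osteoclast ligand RANKL, had 84, 61 and 71 counts in MEC1-CTRL and 35, 31 and 38 in MEC1-2B17 cells, without overlap. The fall of *TNFSF11* in MEC1 amounted to -0.94 ± 0.17 (SE) on the log2 scale (adjusted *P* = 0.00022). Its receptor gene *TNFRSF11A* did not follow, at 95.9 to 99.2 CPM in MEC1-CTRL and 95.3 to 101 CPM in MEC1-2B17 cells and with a change of -0.0020 ± 0.035 (SE) on the log2 scale (adjusted *P* = 0.971). *TNFRSF18*, the receptor GITR, had the largest fall among MEC1 members, with 61, 77 and 70 counts in CTRL and 15, 15 and 18 in 2B17 libraries. MEC1-2B17 cells had lower *TNFRSF18* levels, with a change of -2.0 ± 0.22 (SE) on the log2 scale (adjusted *P* = 4.8e-07). The 2 remaining members were *TNFSF15*, at 10 to 14 counts per MEC1 library with a change of 0.30 ± 0.31 (SE) on the log2 scale (adjusted *P* = 0.502), and the ectodysplasin receptor *EDA2R*, at 21.6 to 26.6 CPM in JVM2 with a change of -0.19 ± 0.084 (SE) on the log2 scale (adjusted *P* = 0.103).

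The difference between the line effects was tested over the 31 members in both tables, in a single fit of all 12 libraries, and 21 were past the threshold, compared to 32.0% of 15130 genes. The effect was higher in MEC1 than in JVM2 for 9 of them (15.3% of all genes) and lower for 12 (16.7%), and 8 differed at least 2-fold (8.21%). By role, the threshold was passed by 9 of 12 ligands, 9 of 14 receptors without a death domain, 2 of 4 death-domain receptors and the decoy *TNFRSF10D*. Among ligands, *LTA* and *TNFSF10* had the largest positive values and *TNFSF12*, *LTB* and *TNFSF4* the largest negative ones. *CD70*, *TNF* and *TNFRSF13C* were among the members whose line effects did not pass as different.

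At baseline, 25 of the same 31 members differed between MEC1-CTRL and JVM2-CTRL cells, compared to 78.3% of all genes, a share near that of the members. Of these, 11 were higher in MEC1 (39.6% of all genes) and 14 lower (38.7%), and 16 differed at least 2-fold (33.9%). The median size of the difference was 1.06 on the log2 scale, against 0.64 over all genes. The low-count filter bears on these baseline counts too. *TNFRSF11A* and *TNFRSF9* passed it through their MEC1 libraries and *NGFR* through its JVM2 libraries, so each could only pass as higher in that line. Baseline values below come from counts scaled over all 12 libraries, so they differ slightly from the levels above, and they share the CTRL libraries with the arm comparisons.

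Higher in MEC1-CTRL cells were *TNFRSF11A* (RANK), *LTB*, *TNFRSF9* and *TNFRSF10D*. Mean *TNFRSF11A* levels were 93.0 ± 2.0 CPM in MEC1-CTRL against 0.575 ± 0.20 CPM in JVM2-CTRL cells, with a difference of 7.35 ± 0.14 (SE) on the log2 scale (adjusted *P* = 1.39e-20). *LTB* was at 37.2 ± 2.1 CPM in MEC1-CTRL and 1.39 ± 0.36 CPM in JVM2-CTRL cells (SD, n = 3), a difference of 4.74 ± 0.16 (SE) on the log2 scale (adjusted *P* = 9.65e-17). Mean *TNFRSF9* levels were 12.4 ± 0.58 CPM in MEC1-CTRL against 0.643 ± 0.24 CPM in JVM2-CTRL cells, with a difference of 4.27 ± 0.19 (SE) on the log2 scale (adjusted *P* = 2.13e-14). These 3 genes were low in JVM2-CTRL cells and clearly present in MEC1-CTRL cells. *TNFRSF10D* was at 8.89 ± 0.99 CPM in MEC1-CTRL and 0.774 ± 0.11 CPM in JVM2-CTRL cells (SD, n = 3), a difference of 3.50 ± 0.20 (SE) on the log2 scale (adjusted *P* = 1.52e-12). *TNFSF14* (1.22), *TNFSF11* (1.31) and *TNFRSF10B* (0.98) were higher by smaller log2 differences. Higher in JVM2-CTRL cells were *NGFR, TNFSF13, LTBR* and *TNFSF12*. Mean *NGFR* levels were 0.0714 ± 0.062 CPM in MEC1-CTRL against 4.33 ± 0.57 CPM in JVM2-CTRL cells, with a difference of -5.81 ± 0.34 (SE) on the log2 scale (adjusted *P* = 1.52e-12). *TNFSF13* was at 0.354 ± 0.13 CPM in MEC1-CTRL and 13.7 ± 1.1 CPM in JVM2-CTRL cells (SD, n = 3), a difference of -5.24 ± 0.19 (SE) on the log2 scale (adjusted *P* = 8.68e-16). Mean *LTBR* levels were 0.671 ± 0.24 CPM in MEC1-CTRL against 16.3 ± 0.73 CPM in JVM2-CTRL cells, with a difference of -4.59 ± 0.17 (SE) on the log2 scale (adjusted *P* = 6.64e-16). Each of these was low in MEC1-CTRL cells, *NGFR* with 4, 0 and 4 counts. *TNFSF12* was at 0.576 ± 0.044 CPM in MEC1-CTRL and 4.30 ± 0.42 CPM in JVM2-CTRL cells (SD, n = 3), a difference of -2.89 ± 0.23 (SE) on the log2 scale (adjusted *P* = 3.11e-10). The receptors TACI and BCMA were also higher in JVM2, with *TNFRSF13B* at a log2 difference of -2.05 and *TNFRSF17* at -1.96, as were *TNFSF9* (-1.44), *TNFRSF8* (-1.42), *TNFSF4* (-1.31), *LTA* (-1.05) and *FAS* (-0.58). The lymphotoxin genes therefore split at baseline, with *LTB* higher in MEC1 and *LTA* and *LTBR* higher in JVM2. Mean *TNFSF10* levels were 20.6 ± 1.4 CPM in MEC1-CTRL against 21.6 ± 1.4 CPM in JVM2-CTRL cells, with a difference of -0.063 ± 0.083 (SE) on the log2 scale (adjusted *P* = 0.496). *TNFSF10, TNF, TNFRSF1B, TNFRSF4, TNFRSF12A* and *TNFRSF25* did not pass the threshold. With library size as the only scaling, the median of all genes moved from 0.037 to 0.20, and the small differences of *CD40* (-0.14), *CD70* (-0.19) and *TNFRSF14* (-0.17) lost their calls, that of *CD40* with a change of sign (0.021, adjusted *P* = 0.706), whereas *TNFRSF4* passed (0.80, adjusted *P* = 0.0329). Without MEC1-CTRL replicate 3, *CD40* (adjusted *P* = 0.0611) and *TNFRSF14* (adjusted *P* = 0.0528) lost and *TNF* (-0.25, adjusted *P* = 0.0473) and *TNFRSF4* (0.79, adjusted *P* = 0.0339) gained a baseline call. *TNF* also passed as lower in MEC1 with the CTRL libraries alone (-0.19, adjusted *P* = 0.00651) and without JVM2-2B17 replicate 2 (-0.19, adjusted *P* = 0.00537). The calls of *CD40* and *CD70* were lost in 3 and 4 fits without 1 library, that of *TNFRSF14* in 2 and that of *TNFRSF13C* without JVM2-CTRL replicate 2 (adjusted *P* = 0.0796). The 2B17 cells of the lines were also compared with each other, a comparison added after values had been seen, and 20 of the 31 members differed, compared to 77.1% of all genes, with 9 higher (38.9%) and 11 lower in MEC1-2B17 (38.2%).

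**Figure D3:**
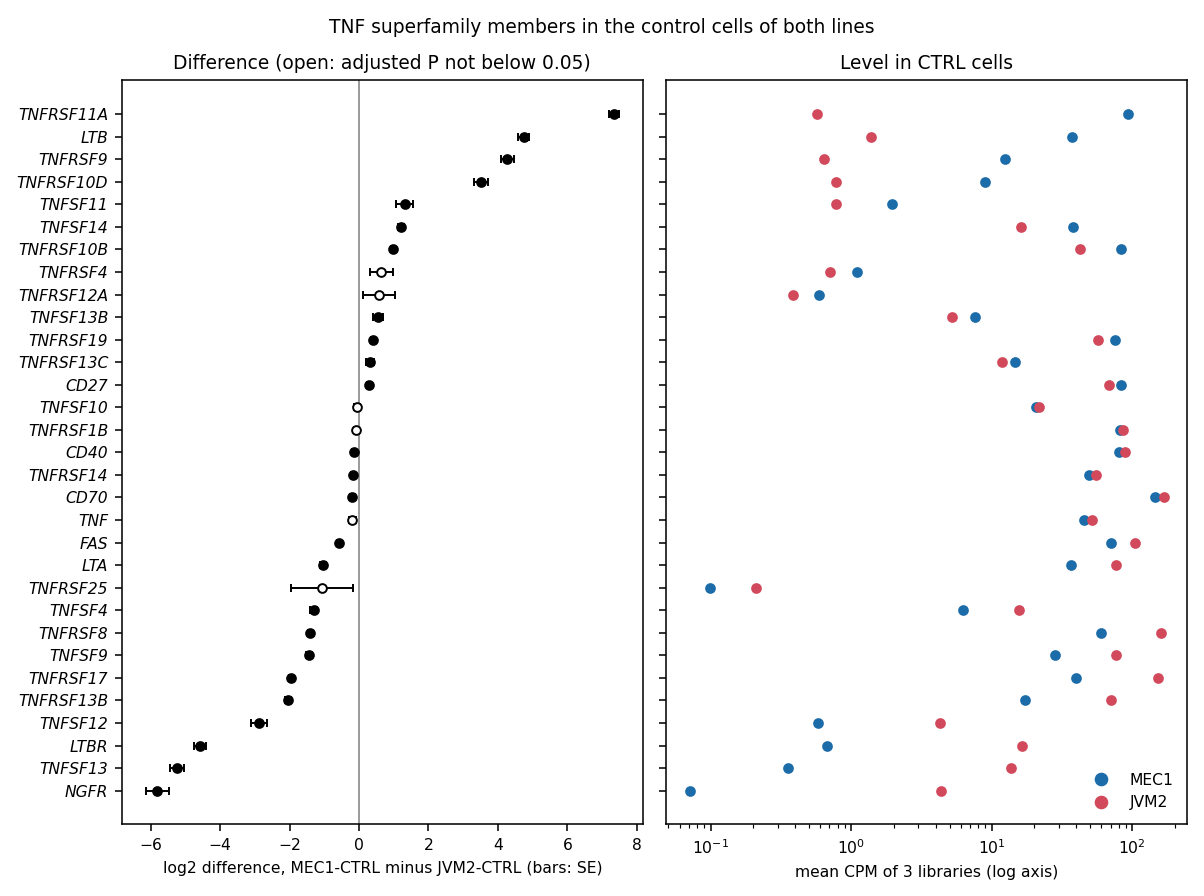
On the left, the log2 difference between MEC1-CTRL and JVM2-CTRL cells with its SE for the 31 members in both tables, filled where the adjusted *P* is below 0.05. On the right, the mean CPM of the 3 libraries of each control population on a log axis. *TNFRSF11A* (7.35), *LTB* (4.74) and *TNFRSF9* (4.27) lead on the MEC1 side and *NGFR* (-5.81), *TNFSF13* (-5.24) and *LTBR* (-4.59) on the JVM2 side.

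Per kilobase of transcript, the leading receptor without a death domain in CTRL cells was *CD27* in MEC1 (70.8 CPM per kilobase), followed by *CD40* (50.1) and *TNFRSF17* (46.7), and *TNFRSF17* in JVM2 (161), followed by *CD27* (51.5), *CD40* (49.1) and *TNFRSF13B* (47.7). The last 3 of these JVM2 levels overlapped within their SDs of 0.38 to 3.8. Among death-domain receptors, *TNFRSF10B* (21.8) and *FAS* (20.0) led in MEC1 and *FAS* (26.6) in JVM2.

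Proteins that carry or curb the signal of the receptors were followed in a list of their own. Of these genes for adaptors, caspases, inhibitors, kinases and sheddases, 30 of 51 tested genes changed in MEC1, 15 in each direction, and 15 of 50 in JVM2, 7 higher and 8 lower, shares of 58.8% and 30.0% against the 41.7% and 29.3% of all genes given above. On the log2 scale, the median change of these genes was 0.17 in size in MEC1 and 0.15 in JVM2, against 0.17 and 0.18 over all genes. The JVM2 count was 9 without JVM2-CTRL replicate 3 and 19 without JVM2-2B17 replicate 2. Past the threshold in both lines were 12 genes, compared to the 15.8% of all genes given above.

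Lower in both were *TRAF1*, an adaptor induced by NF-κB (log2 fold changes of -0.30 and -0.39 in MEC1 and JVM2), *TRAF4* (-0.18 and -0.42) and *MADD*, which encodes a death-domain protein that binds TNFR1 (-0.29 and -0.36). Higher in both were *BIRC3*, the ubiquitin ligase cIAP2 (0.12 and 0.38), *TANK*, a TRAF-binding regulator (0.16 and 0.23), and *MAP3K5*, the stress kinase ASK1 (0.60 and 0.26). Opposite changes were seen for *CASP10*, an initiator caspase of death receptors (-0.72 and 0.24), *IKBKB*, a kinase of the inhibitor of NF-κB (-0.17 and 0.26), *TNIP2* (-0.20 and 0.23), *RNF31*, the catalytic subunit of the linear ubiquitin ligase (0.18 and -0.29), *RHBDF2*, a partner of the TNF sheddase (0.23 and -0.48), and *SDC1*, a proteoglycan that binds APRIL (0.77 and -0.48). In MEC1 the largest rises were those of *SDC1*, *TRADD* (0.62), the adaptor of TNFR1, and *MAP3K5*, and the largest falls those of *RHBDF1* (-1.45, at mean levels of 0.902 and 0.326 CPM), *TNIP3* (-0.86) and *CASP10*. *RHBDF1*, with 10, 14 and 8 counts in MEC1-2B17 libraries, passed the low-count filter through its CTRL libraries. In JVM2 *TRAF5* (0.59), *BIRC3* and *MAP3K5* rose the most and *SDC1*, *RHBDF2* and *SPATA2* (-0.45) fell the most.

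**Figure D4:**
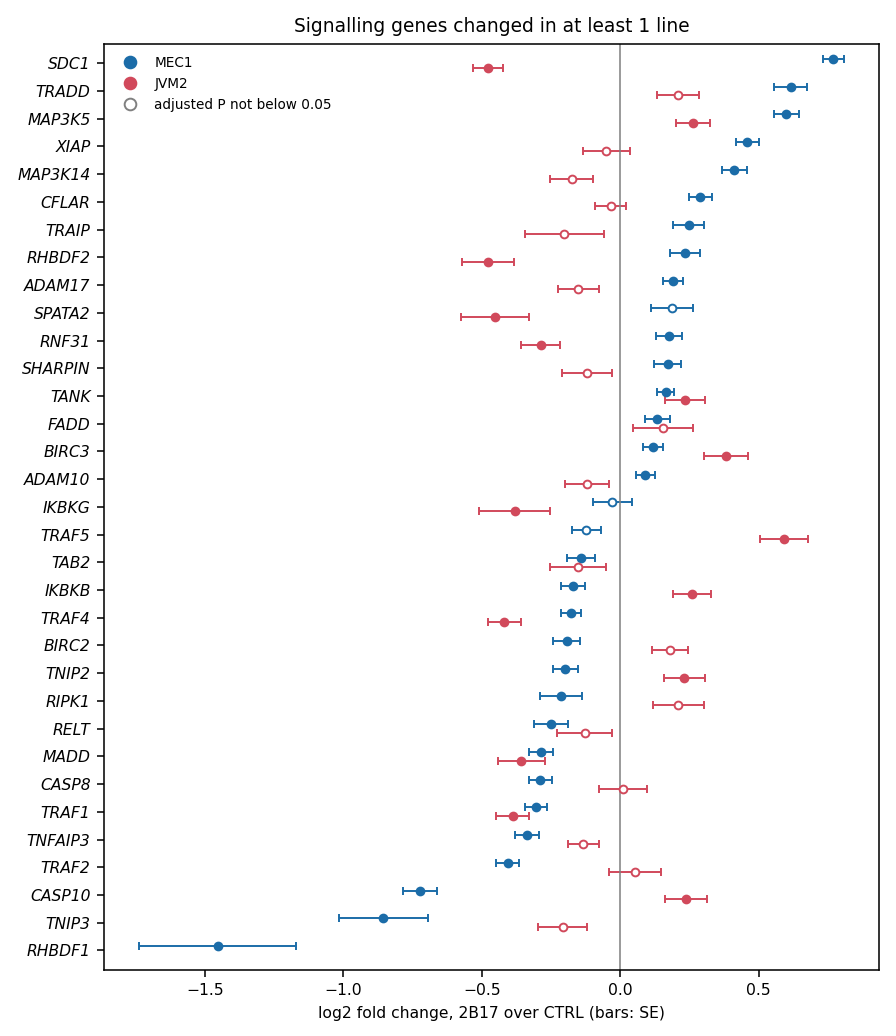
Log2 fold change of 2B17 over CTRL cells with its SE for the 33 signalling genes past the threshold in at least 1 line, MEC1 in blue and JVM2 in red, filled where the adjusted *P* is below 0.05, in the order of the MEC1 value. Apart from *RHBDF1* (-1.45), all changes lie within 1 log2 unit.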

How the data were processed

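RNA was measured in 12 libraries, 3 replicates of each of 4 populations (2B17 and CTRL cells of each line), assigned from the labels. The authors depleted ribosomal RNA, sequenced paired ends on a HiSeq2000 at 2 sites (the site of each library is not given in the sources used here), trimmed reads with Trimmomatic, aligned them to hg38 with TopHat2 2.0.14 and counted reads per Ensembl gene with HTSeq. For each line the authors deposited raw counts per gene and replicate, and only these counts were used. The authors also deposited log2 fold changes, log2 mean CPM, p-values and adjusted p-values of their edgeR and DESeq2 comparisons, and a score per library (counts divided by a size factor and rounded), none of which were used. The study's methods call the replicates biological.

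Counts of each line were fitted alone with edgeR 4.0.16 in R 4.3.3 (TMM scaling, filterByExpr at min.count 10 and min.total.count 15, quasi-likelihood F-test, 2B17 against CTRL), with Benjamini-Hochberg adjustment over all genes tested in the line and a threshold of 0.05. A single fit of all 12 libraries, over genes in both tables, gave the difference between line effects and the baseline difference. Standard errors were derived from the F statistic. CPM used TMM-scaled library sizes, and levels were compared between genes per kilobase of the Ensembl canonical transcript (GENCODE v44, which holds 21798 of 22441 MEC1 and 16799 of 17144 JVM2 identifiers). Positions are on GRCh38. Promoter sequences are from RefSeq.

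Members and lists were chosen with earlier results of these data known. All members are accounted for. Values per library are given for members past the threshold in both lines, past it in 1 line with a log2 fold change of at least 1 in size, past it for the difference between lines, or highest of their role. Signalling genes are named where they passed in both lines or had one of the 3 largest rises or falls of a line.

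Library totals were 31762649 to 37744991 counts in MEC1 and 8809179 to 11231330 in JVM2, and the common biological coefficient of variation was 4.22% and 6.92%. The fits were tested on simulated data. The alternatives were DESeq2 1.42.0, edgeR's exact test, both tools together, RLE scaling, library size only, no filter, the replicate number as a block, a filter of at least 10 counts in every library, the CTRL libraries alone for the baseline, and each library left out in turn.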

Additional observations from a re-analysis of the deposited data

Results flagged for a closer look

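The effect of the 2B17 arm differed between the lines for 21 of the 31 members in both tables, by the test of the difference itself (edgeR's quasi-likelihood test with Benjamini-Hochberg adjustment over all 15130 genes, against 32.0% of those). All values below are the log2 fold change in MEC1 minus that in JVM2, with the adjusted *P* in the report or, for members without one there, in this paragraph. Members with changes past the threshold in opposite directions gave 1.15 for *LTA*, 0.97 for *TNFRSF8* (adjusted *P* = 1.21e-08), 0.48 for *TNFSF9* (adjusted *P* = 0.00275), -1.59 for *TNFSF4*, -1.78 for *TNFSF12* (adjusted *P* = 0.000787) and -0.43 for *FAS* (adjusted *P* = 0.000161). Members that changed in the same direction but by different amounts gave 1.16 for *TNFSF10*, 0.33 for *TNFRSF13B* (adjusted *P* = 0.0434), -1.67 for *LTB*, -0.32 for *TNFRSF19* and -0.34 for *TNFRSF10B* (adjusted *P* = 0.0031). Thus *TNFSF10*, *LTB*, *TNFRSF19* and *TNFRSF10B* changed more in JVM2, and so did *TNFRSF13B*, whose difference was lost without JVM2-2B17 replicate 2 (0.22, adjusted *P* = 0.0938) and without MEC1-CTRL replicate 3 (0.30, adjusted *P* = 0.0847).

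Members past the threshold in 1 line gave 1.86 for *LTBR* (adjusted *P* = 4.84e-05), 0.37 for *TNFRSF1B* and -0.34 for *TNFSF14* (adjusted *P* = 0.0414), which changed in JVM2. Those that changed in MEC1 gave -0.89 for *TNFRSF17*, -0.67 for *TNFSF13B*, -0.39 for *CD27* (adjusted *P* = 0.00302), 0.30 for *CD40* (adjusted *P* = 0.00315) and 0.28 for *TNFRSF14* (adjusted *P* = 0.0144). The decoy *TNFRSF10D* (-1.46, adjusted *P* = 0.00858) and the RANKL gene *TNFSF11* (-1.25, adjusted *P* = 0.0215) were too low to test in JVM2 alone, so their difference rests on few JVM2 counts. That of *TNFSF11* was lost without JVM2-2B17 replicate 2 (-1.16, adjusted *P* = 0.0668) and without JVM2-CTRL replicate 2 (-1.17, adjusted *P* = 0.057). The MEC1 arms also differed in construct and antibiotic, which cannot be told apart from the line in these differences.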

How the results depend on the processing

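Under the planned settings other than leaving out a library, 835 of the single-member values stayed on their side of the threshold. Of the others, 17 lost and 4 gained a call, and 1 lost its call with a change of sign, *CD40* at baseline with library size only (0.021). The 835 include values past the threshold in neither fit, and the sign of these was free to change. The one count that moved by over 1.5 times was the baseline count, 15 of 21 members tested with at least 10 counts in every library. Fewer members pass that filter. In addition, *CD40* (adjusted *P* = 0.199), *CD70* (adjusted *P* = 0.168) and *TNFRSF14* (adjusted *P* = 0.156) were tested there and lost their calls. When each library was left out in turn, 22 to 25 members changed in MEC1, 14 to 17 in JVM2 and 9 to 12 in both lines, 18 to 20 differed in their effect between the lines, and 22 to 26 differed at baseline. Signalling genes changed numbered 26 to 32 in MEC1 and 9 to 19 in JVM2, with 9 without JVM2-CTRL replicate 3. Of the single-member values, 57 lost and 14 gained a call in these fits and 1021 did neither. The differences between lines of *TNFRSF13B*, *TNFSF14* and *TNFSF13B* passed in 9, 10 and 12 of 18 alternatives, with adjusted *P* up to 0.109, 0.147 and 0.123. DESeq2 called 21 members in MEC1, 16 in JVM2 and 8 in both. Reads at low-level members limit JVM2, where 7 listed members could not be tested.

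Same-numbered replicates of the arms did not deviate together in all pairs (correlations of -0.046 to 0.042 in MEC1 and -0.010 to 0.11 in JVM2), so the numbers were not taken as pairs. With the replicate number as a block, 25 members changed in MEC1, 16 in JVM2 and 11 in both lines, 21 differed in effect between the lines and 25 at baseline, and 31 and 16 signalling genes changed in MEC1 and JVM2.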

Other observations

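Some members differed between the 2B17 cells of the lines by other amounts than between the CTRL cells, in the comparison added after values had been seen, and the change from one to the other is the difference between line effects given above. *LTA*, which was lower in MEC1-CTRL than in JVM2-CTRL cells, had a difference of 0.10 ± 0.091 (SE) on the log2 scale (adjusted *P* = 0.322) in 2B17 cells. *TNFSF10*, close in the CTRL cells, was higher in MEC1-2B17 cells, at 1.10 ± 0.12 (SE) on the log2 scale (adjusted *P* = 5.72e-08). The OX40 ligand gene *TNFSF4* differed by -2.90 ± 0.11 (SE) on the log2 scale (adjusted *P* = 6.67e-16) in 2B17 cells, against -1.31 in CTRL cells, and the BCMA gene *TNFRSF17* by -2.85 ± 0.055 (SE) on the log2 scale (adjusted *P* = 1.59e-20), against -1.96. For *TNFRSF19* the difference was 0.082 ± 0.051 (SE) on the log2 scale (adjusted *P* = 0.145), against 0.40 in CTRL cells. These 2B17 and CTRL libraries also enter the tests of the line effects, so the values are not independent of them.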
